A study of Mus musculus with 12 samples.

Results

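Cells mend broken DNA with several sets of proteins, and the genes described here encode the core of 4 of them: checkpoint and break signalling, homologous recombination, the Fanconi pathway and end joining. The 47 genes were taken by name, with earlier results of these data known, and all 47 of them were found among the 34102 genes of the count table. There were 9 genes of checkpoint and break signalling, 21 of homologous recombination (with end resection and junction resolution), 9 of the Fanconi pathway and 8 of end joining. Total RNA was sequenced from 12 mouse libraries, and both systems came from the C57BL/6 strain. The cortex libraries were 3 from Srsf10 flox/flox animals without Nestin-Cre (control) and 3 from Srsf10 flox/flox animals with Nestin-Cre (labelled cKO). The floxed alleles were thus shared by both cortex groups, Cre was driven by a promoter used in neural progenitors and their descendants, and there was no group with Cre and unfloxed Srsf10. The sources used here do not give the age of these animals. The other libraries came from primary cultured neural progenitor cells (NPC), 3 from wild-type cells (control) and 3 labelled SRSF10 knockdown. Knockdown was by lentivirus at a multiplicity of infection of 30, with RNA taken 72 h after infection, and the virus given to the control cells, if any, is not stated. SRSF10 is a splicing factor, a member of the SR protein family.

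Checkpoint kinases such as ATM and ATR sense broken or stalled DNA and stop the cell cycle while adaptor proteins mark the break. Homologous recombination copies the lost sequence from the sister chromatid and so works mainly in S and G2 phase, the Fanconi proteins unhook crosslinked strands during replication, and end joining rejoins ends in any phase. Dividing progenitors of the embryonic cortex depend on these pathways, while neurons no longer divide and rely mainly on end joining.

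The libraries held 26074094 to 36713205 counts. In the cortex control libraries 8 neuron markers summed to 9201 to 9451 CPM (counts-per-million, scaled within each system by edgeR's TMM factors) and 8 neural progenitor markers to 405 to 488. In the NPC control libraries the neuron markers summed to 1033 to 1143 CPM and the progenitor markers to 6866 to 7109. Single markers did not all follow their sums. In NPC control Vim, Nes and Olig2 carried most of the progenitor sum, Hes5 (2.54 to 6.15 CPM) and Eomes (0.305 to 0.894) were below their cortex control levels (15.1 to 18.5 and 11.5 to 23.1), and Pax6 was about level (24.8 to 27.8 in NPC, 18.1 to 24.6 in cortex). Map2 made up nearly all of the NPC neuron sum (986 to 1098 CPM), and Olig1, of the oligodendrocyte lineage, stood at 1634 to 1674 CPM. Srsf10 itself, counted over the whole gene, did not separate the labels. It stood at 198, 220 and 202 CPM in cortex control and at 223, 187 and 224 in the libraries labelled cKO, and at 248, 227 and 223 CPM in NPC control and 239, 220 and 217 in the libraries labelled knockdown. The differences were 0.03 (log2, adjusted p = 0.917) in cortex and -0.05 (adjusted p = 0.530) in NPC, and a gene-level count does not show whether a floxed exon was lost. Directions below are therefore those of the libraries labelled cKO and knockdown.

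The promoters of 6 members are shown because these genes rose in NPC with the test described below and cover all 4 roles. RefSeq's table of promoters (GRCm38.p6) held 39 of the 47 members, 27 of them among the genes that rose, and the 6 are those of the 27 whose window holds no exon of any gene in the GENCODE annotation. Each is the 250 bases before the RefSeq start, read 5′ to 3′ on the strand of the gene. They lie at chr17:35841248-35841497 (plus strand, Mdc1), chr5:150522371-150522620 (plus strand, Brca2), chr12:111813880-111814129 (minus strand, Xrcc3), chr8:123318577-123318826 (minus strand, Fanca), chr13:63814990-63815239 (plus strand, Ercc6l2) and chr16:37011536-37011785 (plus strand, Polq). Capitals mark the letters searched for on both strands: the E2F core (TTCCCGC or TTGGCGC or TTCGCGC or TTGCCGC), bound by the E2F factors that drive S phase genes; CCAAT, the letters of the CCAAT box; TTTGAA, an element of G2 and mitosis genes; and GCGCATGC, the core of the NRF1 site.
Mdc1: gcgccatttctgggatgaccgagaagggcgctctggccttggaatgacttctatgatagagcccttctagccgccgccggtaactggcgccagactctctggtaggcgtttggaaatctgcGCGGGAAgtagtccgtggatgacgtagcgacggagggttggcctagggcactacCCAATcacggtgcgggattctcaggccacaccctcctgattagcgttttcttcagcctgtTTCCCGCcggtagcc
Brca2: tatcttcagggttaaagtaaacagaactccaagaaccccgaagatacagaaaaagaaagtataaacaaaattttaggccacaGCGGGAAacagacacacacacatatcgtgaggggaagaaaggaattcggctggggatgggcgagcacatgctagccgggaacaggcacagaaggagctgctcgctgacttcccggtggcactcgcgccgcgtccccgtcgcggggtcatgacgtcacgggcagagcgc
Xrcc3: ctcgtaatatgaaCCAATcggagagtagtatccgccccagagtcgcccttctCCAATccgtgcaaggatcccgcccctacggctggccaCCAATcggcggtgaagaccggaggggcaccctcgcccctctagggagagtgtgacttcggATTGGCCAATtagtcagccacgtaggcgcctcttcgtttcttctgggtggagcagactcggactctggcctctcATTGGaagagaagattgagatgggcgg
Fanca: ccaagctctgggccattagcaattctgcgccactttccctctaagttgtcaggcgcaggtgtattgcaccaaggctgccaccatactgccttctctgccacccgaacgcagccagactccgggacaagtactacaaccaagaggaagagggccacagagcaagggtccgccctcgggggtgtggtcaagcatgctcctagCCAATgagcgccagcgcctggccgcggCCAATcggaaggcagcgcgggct
Ercc6l2: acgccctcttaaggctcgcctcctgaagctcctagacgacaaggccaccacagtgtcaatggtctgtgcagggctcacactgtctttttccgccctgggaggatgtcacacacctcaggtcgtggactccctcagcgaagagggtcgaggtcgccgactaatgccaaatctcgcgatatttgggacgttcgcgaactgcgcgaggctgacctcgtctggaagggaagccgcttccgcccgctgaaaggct
Polq: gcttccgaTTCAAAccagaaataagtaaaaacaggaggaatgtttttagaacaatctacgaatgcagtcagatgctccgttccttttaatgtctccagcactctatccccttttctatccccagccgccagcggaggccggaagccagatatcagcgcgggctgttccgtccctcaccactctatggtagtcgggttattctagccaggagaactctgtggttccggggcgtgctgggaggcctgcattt
The E2F core stood 15 and 129 bases before the start in Mdc1 and 168 in Brca2. CCAAT was found 75 bases before the start in Mdc1, at 6 places in Xrcc3 and at 23 and 50 bases in Fanca. Polq held TTTGAA 242 bases before the start, and the window of Ercc6l2 held none of the letters searched for. Over the 39 matched members, 16 windows (41.0%) held an E2F core, against 14.4% of 10729 matched genes tested in NPC and 8.03% of all 27025 promoters of the table. CCAAT was in 19 of the 39 (48.7%, against 36.8% of the genes tested in NPC), the NRF1 core in 4 (10.3%, against 4.40%) and TTTGAA in 3 (7.69%, against 10.2%). Windows that hold exon bases were kept in these shares. In Fancm and Xrcc6, each with an E2F core, all 250 bases lie in exons by the GENCODE annotation. A match describes these letters and is not a bound site. No promoter was read for Rad50, Nbn, Exo1, Rad51d, Xrcc2, Rad54b, Fancd2 and Prkdc.

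The levels of the repair genes set the control groups of the 2 systems apart. Cortex and NPC are different material handled separately, so these levels are a description with no test. Per kilobase of exon, the highest members in cortex control were Trp53bp1, the adaptor that steers breaks towards end joining, at a mean of 21.8 CPM per kb, and Rnf168, a ubiquitin ligase that recruits it, at 14.8. In NPC control the highest were Mdc1, the adaptor that binds the marked histone at a break, at 15.7 CPM per kb, Topbp1, an activator of ATR, at 14.5, and Nbn, the sensor subunit of the MRN complex, at 14.1. The mean of Mdc1 in cortex control was 0.97 CPM per kb. The lowest members were Rad51c and Rad51b, subunits of complexes that act in strand exchange, at 0.11 and 0.15 CPM per kb in cortex control, and Rnf8, the ligase that acts before Rnf168, at 0.67 in NPC control. By annotation Rnf8 shares 13.2% of its exon bases with Gm28043 on the same strand, so its level is uncertain. In this bulk RNA, fewer cells expressing a gene and less RNA of it per cell cannot be told apart.

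**Figure D1:**
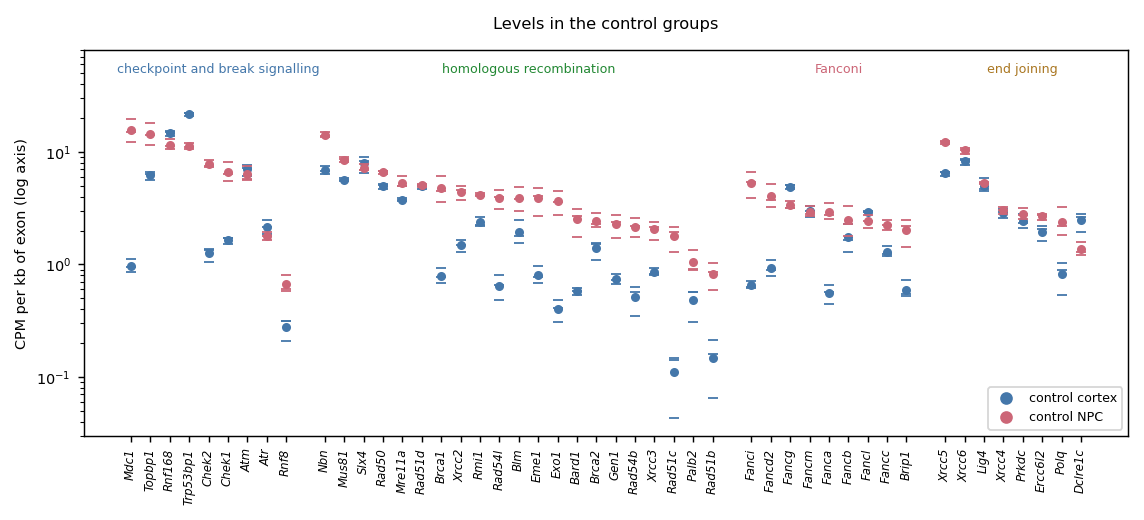
Level of each of the 47 members in the control libraries of cortex (blue) and NPC (red), in CPM per kilobase of exon on a log axis, grouped by role; points are means of 3 libraries and short bars the single libraries. Mdc1 lies at 0.97 in cortex and 15.7 in NPC, and Trp53bp1 at 21.8 in cortex.

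In NPC the repair genes were higher in the libraries labelled knockdown when each was compared with its same-numbered control. With the replicate number as a block, 32 of the 47 members rose and 0 fell (edgeR's quasi-likelihood test, Benjamini-Hochberg adjusted p under 0.05 over all 14258 genes tested), where 24.7% of all tested genes were called in either direction and 11.9% were called higher. The rises were of moderate size, with a median log2 difference of 0.31 over the 47 members against 0.00 over all tested genes, and 0 members passed a minimum of 1.5-fold. All 47 members passed the filter on low counts. By role, 7 of 9 genes of checkpoint and break signalling rose (median 0.26), 14 of 21 of homologous recombination (0.40), 7 of 9 of the Fanconi pathway (0.41) and 4 of 8 of end joining (0.16). The differences between these medians were not tested.

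These calls rest on the pairing. Without the block 0 of 47 members were called by edgeR (1.89% of all tested genes were), with 12 members at an unadjusted p under 0.05, all higher, and the smallest adjusted p was 0.0547, for Ercc6l2. The median difference without the block was 0.32, and what changed was the spread: the biological coefficient of variation (the spread between replicates beyond counting error) was 0.0569 with the block and 0.145 without it. DESeq2 called 24 members with the block (17.1% of all tested genes) and 4 without it, Gen1, Fanci, Fancm and Ercc6l2 (7.16%). Per member, the knockdown library was above its same-numbered control in all 3 pairs for 38 of 47 (80.9%, against 27.1% of all tested genes), and below it in all 3 for 3, Trp53bp1, Slx4 and Lig4. The median over members was 0.35, 0.24 and 0.30 in pairs 1, 2 and 3.

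**Figure D2:**
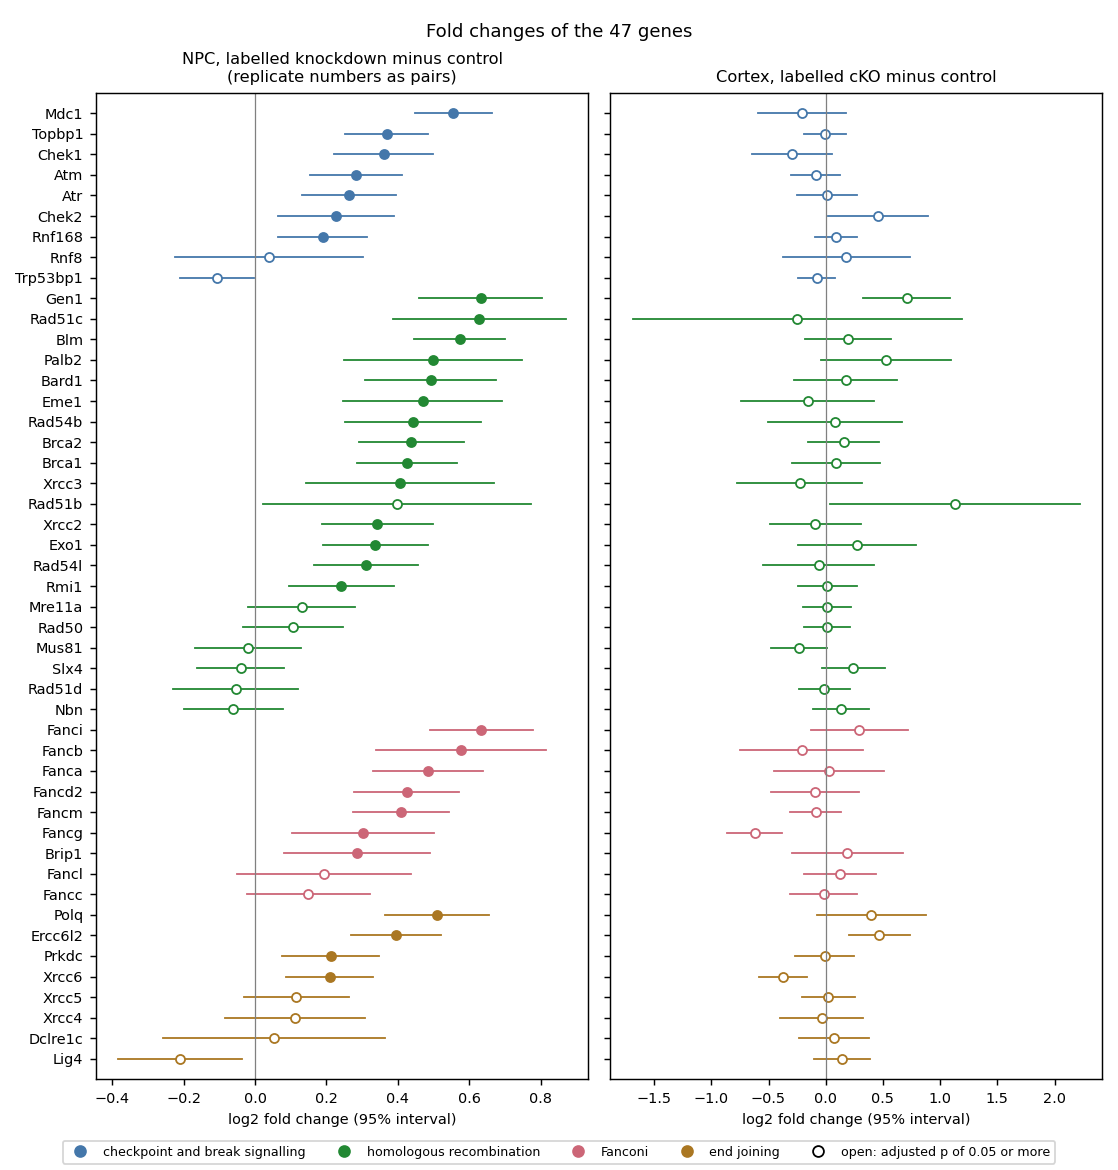
Log2 difference of each member in NPC (left, labelled knockdown minus control, with the replicate block) and in cortex (right, labelled cKO minus control), coloured by role, with 95% intervals; filled points passed an adjusted p under 0.05, and the 2 axes have different ranges. In NPC 32 of 47 members are filled and to the right of 0, and in cortex 0 are.

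Most members moved together with genes of the dividing cell, from library to library as well as between groups. In NPC control, replicate 1 was the highest of the 3 libraries for 38 of 47 members and replicate 3 the lowest for 36, and in the libraries labelled knockdown the corresponding numbers were 38 and 37. The same holds for 25 of 25 S phase genes and 24 of 24 genes of G2 and mitosis in NPC control. Over all 14258 genes in NPC control, replicate 1 was highest for 5370 and replicate 3 lowest for 4879. End joining followed this order less. Replicate 1 was highest for 5 of its 8 genes and replicate 3 lowest for 3 in control, and for 5 and 6 in knockdown. The median difference between control replicates 1 and 3 was 0.40 (log2) for the members, 0.69 for the S phase list and 0.79 for the G2 and mitosis list, each larger than the members' median difference between groups. For the end joining members alone it was 0.09. With the block, 25 of 25 S phase genes (median 0.41) and 24 of 24 genes of G2 and mitosis (median 0.51) rose, and without it edgeR called 0 of either list (9 and 12 genes were higher at an unadjusted p under 0.05, and 0 lower). Levels of cell type markers also differed (not tested), and some did so between replicates. Sox10, of the oligodendrocyte lineage, was at 10.9, 3.47 and 2.81 CPM in control replicates 1, 2 and 3. In the libraries labelled knockdown it was at 19.4, 2.59 and 1.38. Gpr17 was at 9.26, 2.59 and 1.18 in control and 14.8, 1.46 and 1.38 in knockdown. Olig1 went the other way, with replicate 3 the highest in both groups (1674 and 1826 CPM). The summed level of 5 astrocyte markers was 1810 to 1875 CPM in control and 1996 to 2169 in the libraries labelled knockdown, mostly through Aldh1l1 (459 to 553 and 592 to 777), while Slc1a3 was at 1262 to 1311 and 1298 to 1340 and Gfap was lower in all 3 pairs. The sum of the 8 progenitor markers overlapped, at 6866 to 7109 and 6666 to 7837, but its members went apart. Sox2 was lower without overlap (287 to 302 and 186 to 245 CPM), Olig2 was higher without overlap (1051 to 1076 and 1099 to 1151), and Nes was higher in all 3 pairs. The part of the cell cycle genes and of these markers in the repair genes' difference, or in the order of their replicates, was not tested.

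**Figure D3:**
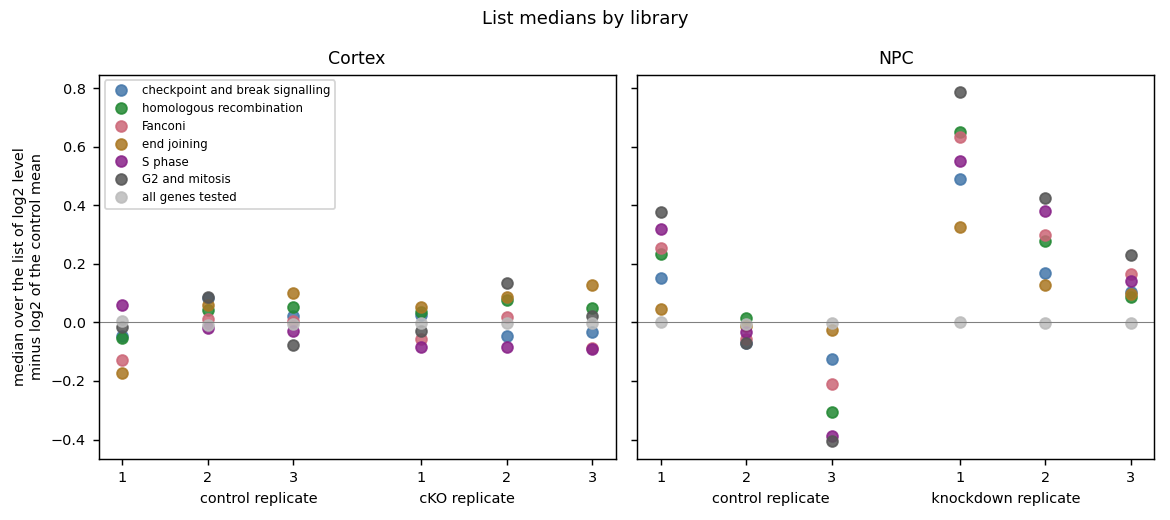
Median over each role group, the S phase list, the G2 and mitosis list and all tested genes of the log2 level minus that of the control mean, for every library of cortex (left) and NPC (right); 1 point is 1 list in 1 library. Over all members the medians are 0.17, -0.04 and -0.19 in NPC control and 0.56, 0.23 and 0.10 in the libraries labelled knockdown (replicates 1, 2 and 3), and in both NPC groups replicate 3 is the lowest.

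Among the signalling genes, the rise reached both apical kinases. Atm, the kinase that answers double-strand breaks, stood at 77.4, 60.0 and 58.5 CPM in NPC control (replicates 1, 2 and 3, the order used throughout) and at 102, 72.5 and 65.4 in the libraries labelled knockdown. Each knockdown library lay above its pair, but the groups overlapped, and the difference was 0.28 (adjusted p = 0.00363, and 0.446 without the block). Atr, which answers stalled forks, was at 46.3, 42.0 and 38.8 CPM in control and 59.7, 47.7 and 45.6 in knockdown, a difference of 0.26 (adjusted p = 0.00674) with overlapping groups. The kinases below them rose as well: Chek1, the target of ATR, by 0.36 (adjusted p = 0.00115) and Chek2, the target of ATM, by 0.23 (adjusted p = 0.0421).

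Mdc1 had the largest rise of this role. It was at 145, 112 and 91.4 CPM in control and at 210, 161 and 140 in the libraries labelled knockdown. The third knockdown library lay below the first control, so the groups overlapped, while within pairs the difference was 0.56 ± 0.05 (log2, SE; adjusted p = 5.59e-06). Without the block the same difference was 0.55 ± 0.20 (SE) with an adjusted p of 0.209. Topbp1 rose by 0.37 (adjusted p = 0.00026) and Rnf168 by 0.19 (adjusted p = 0.0294). Rnf8 (0.04, adjusted p = 0.858) and Trp53bp1 (-0.11, adjusted p = 0.127) did not pass the test, and Trp53bp1 was at 155, 151 and 171 CPM in control and 142, 142 and 159 in knockdown. By annotation Trp53bp1 shares 15.0% of its exon bases with Tubgcp4, Rad54l 15.4% with Lrrc41, Fancl 13.7% with Vrk2 and Fancc 16.4% with Gm16133.

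In homologous recombination the genes that start resection did not pass the test, and most of those that act later did. Mre11a, the nuclease of the MRN complex, stood at 35.9, 29.5 and 29.6 CPM in NPC control and at 39.2, 35.4 and 29.5 in the libraries labelled knockdown (0.13, adjusted p = 0.202). Rad50, its ATPase, was at 36.2, 36.6 and 33.9 CPM in control and 42.4, 37.5 and 35.3 in knockdown (0.11, adjusted p = 0.264). Both overlapped between groups, and Nbn differed by -0.06 (adjusted p = 0.545). Exo1, the nuclease of long resection, rose by 0.34 (adjusted p = 0.00287).

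The BRCA genes, which favour recombination over end joining, rose together. Brca1 rose by 0.43 (adjusted p = 0.000374), its partner Bard1 by 0.49 (adjusted p = 0.00095) and Brca2 by 0.44 (adjusted p = 0.000445). Palb2, which bridges BRCA1 and BRCA2, was at 9.87, 6.71 and 6.60 CPM in control and 14.3, 10.8 and 7.87 in the libraries labelled knockdown. Its groups overlapped, and it rose by 0.50 (adjusted p = 0.00657, and 0.340 without the block).

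Of Rad51b, Rad51c, Rad51d, Xrcc2 and Xrcc3, whose proteins act together in recombination, not all passed. Rad51c was at 8.44, 9.46 and 5.62 CPM in NPC control and at 12.9, 12.9 and 10.2 in knockdown. Every knockdown library of Rad51c lay above every control library, and the difference of 0.63 ± 0.11 (SE) had an adjusted p of 0.0012, or 0.188 without the block. Xrcc2 (0.34, adjusted p = 0.0036) and Xrcc3 (0.41, adjusted p = 0.0277) rose, whereas Rad51b (0.40, adjusted p = 0.117) and Rad51d (-0.05, adjusted p = 0.679) did not pass. Of the translocases of recombination, Rad54l rose by 0.31 (adjusted p = 0.00452) and Rad54b by 0.44 (adjusted p = 0.00262). By annotation Rad54b shares 35.8% of its exon bases with Fsbp on the same strand, so its counts are uncertain.

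Among the genes that take apart joined DNA molecules, Blm and Gen1 rose most. Blm encodes the helicase that dissolves double Holliday junctions, and it was at 42.9, 33.8 and 26.1 CPM in NPC control and 63.2, 49.99 and 39.5 in knockdown. The groups overlapped in level, and the rise within pairs was 0.57 ± 0.06 (SE; adjusted p = 1.7e-05, and 0.234 without the block). Gen1, a resolvase that cuts Holliday junctions, was at 21.4, 18.4 and 13.4 CPM in control and 33.4, 25.9 and 22.7 in knockdown. Its groups did not overlap, and it rose by 0.63 ± 0.08 (SE; adjusted p = 8.78e-05, and 0.169 without the block). Eme1, the partner of the nuclease MUS81, rose by 0.47 (adjusted p = 0.00469) and Rmi1, a partner of BLM, by 0.24 (adjusted p = 0.0194), whereas Mus81 (-0.02, adjusted p = 0.876) and the nuclease scaffold Slx4 (-0.04, adjusted p = 0.663) did not pass.

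In the Fanconi pathway genes of the core complex and both of its substrates rose. Fanca, a core subunit, was at 30.5, 24.1 and 22.03 CPM in NPC control and 45.8, 34.9 and 27.5 in knockdown. It rose by 0.48 (adjusted p = 0.000308), with the third knockdown library inside the control range. Fancb, another core subunit, was at 9.84, 6.83 and 5.35 CPM in control and 13.5, 11.1 and 7.98 in knockdown, and rose by 0.58 (adjusted p = 0.00187) with overlapping groups. Fanca shares 10.5% of its exon bases with Zfp276 by annotation.

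Fanci, which with FANCD2 forms the pair that the core complex ubiquitinates, had the largest rise of the pathway. It was at 37.9, 31.5 and 22.7 CPM in NPC control and 53.3, 50.7 and 37.8 in the libraries labelled knockdown. The lowest knockdown library stood just under the highest control, and the rise was 0.63 ± 0.07 (SE; adjusted p = 2.08e-05, and 0.174 without the block). Fanci shares 16.0% of its exon bases with Polg on the other strand. Fancd2 rose by 0.42 (adjusted p = 0.000557), Fancm, the translocase that anchors the core complex, by 0.41 (adjusted p = 0.000359), and the helicase gene Brip1 by 0.28 (adjusted p = 0.0436). Fancc, a core subunit (0.15, adjusted p = 0.199), and Fancl, the ubiquitin ligase of the complex (0.19, adjusted p = 0.246), did not pass, and Fancg is given with the difference between the systems.

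End joining had the fewest calls. Xrcc4, the scaffold of the ligase that seals the ends, was at 11.8, 13.7 and 12.7 CPM in NPC control and 12.4, 14.4 and 14.4 in knockdown, a difference of 0.11. Xrcc5, the Ku80 subunit of the Ku ring that binds free ends, was at 31.9, 30.0 and 31.2 CPM in control and 37.6, 32.4 and 31.2 in knockdown, a difference of 0.12. The groups of both overlapped and neither passed the test, nor did Dclre1c, the end-trimming nuclease Artemis (0.05, adjusted p = 0.833). Lig4, the ligase itself, was at 27.1, 27.9 and 27.3 CPM in control and 22.6, 27.7 and 21.3 in knockdown (-0.21, adjusted p = 0.0763), and without the second pair it passed as lower (adjusted p = 0.0359).

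The 4 end joining genes that rose included one of the alternative, microhomology-based route. Polq encodes the polymerase of that route and was at 31.1, 21.1 and 17.7 CPM in NPC control and 43.2, 30.2 and 25.8 in knockdown, a rise of 0.51 (adjusted p = 0.000125, and 0.340 without the block) with overlapping groups. Prkdc, the kinase recruited by Ku, rose by 0.21 (adjusted p = 0.0262) and Xrcc6, the Ku70 subunit, by 0.21 (adjusted p = 0.0160). Ercc6l2, a gene of the SNF2 helicase family that acts in end joining, was at 42.4, 42.0 and 38.0 CPM in control and 53.3, 57.0 and 50.6 in knockdown. All knockdown libraries of Ercc6l2 lay above all control libraries, and it rose by 0.39 (adjusted p = 0.000301).

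**Figure D4:**
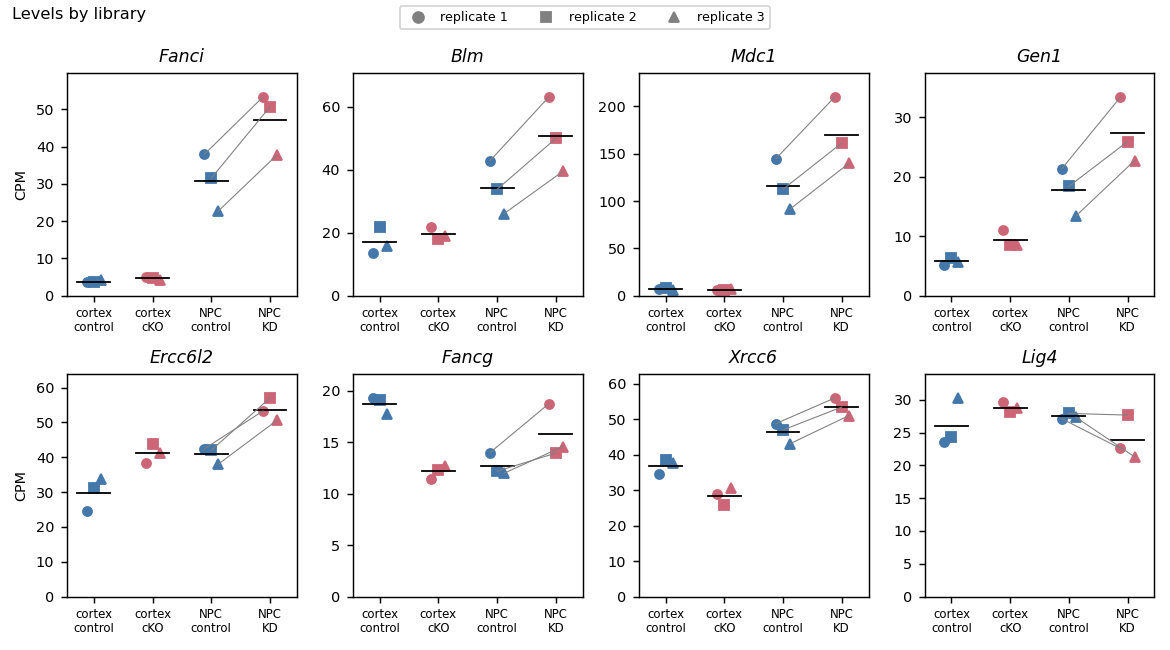
Level in CPM of 8 members in every library (KD stands for the libraries labelled knockdown), with 1 point per library shaped by replicate number, lines joining same-numbered NPC libraries and bars at the group means; each panel has its own axis from 0. Gen1 runs from 13.4 to 33.4 in NPC, and Fancg lies at 17.7 to 19.3 in cortex control and 11.4 to 12.7 in the libraries labelled cKO.

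Counted by overlap, 7 members had all knockdown libraries above all control libraries in NPC (Rad51c, Xrcc2, Rmi1, Gen1, Fancm, Xrcc6 and Ercc6l2) and 0 had them all below, where 23.4% of all tested genes separated in either direction (1512 of 14258 above and 1823 below). All 7 were among the 32 members that rose with the block, and the others of the 32 overlapped between groups and were higher within pairs.

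In the cortex the members did not move as a group. By edgeR 0 of 47 passed the test (0.171% of 15781 tested genes did), with 4 members higher and 2 lower at an unadjusted p under 0.05, which is 12.8% of the members against 10.9% of all tested genes. The median log2 difference was 0.01 over all members, -0.00 for checkpoint and break signalling, 0.08 for homologous recombination, -0.02 for the Fanconi pathway and 0.05 for end joining. DESeq2 called 4 members (2.10% of all tested genes): Gen1 and Ercc6l2 higher, Fancg and Xrcc6 lower. All cKO libraries lay above all control libraries for 6 members (Chek2, Palb2, Rad51b, Gen1, Fanci and Ercc6l2) and below them for 5 (Chek1, Xrcc3, Mus81, Fancg and Xrcc6), where 17.3% of all tested genes separated. The median of the S phase list was -0.06 in cortex and that of the G2 and mitosis list 0.06, and 0 genes of either list were called by edgeR (4 S phase genes were lower and 0 higher at an unadjusted p under 0.05). The libraries of each cortex group also differed among themselves in signal from the choroid plexus: the summed level of 4 choroid plexus markers ran from 3.46 to 1230 CPM in control and from 18.4 to 1100 in the libraries labelled cKO. The part of this signal in the members' values was not tested. Without the libraries rich in it 0 members were called in cortex (22 of 15889 tested genes were). That count was already 0 with all libraries and could not fall. The members' median difference was 0.10 without them and 0.01 with all libraries. The summed level of 5 oligodendrocyte lineage markers separated the cortex groups, at 256 to 274 CPM in control and 219 to 226 in the libraries labelled cKO, with Gpr17 at 24.2 to 26.8 and 13.5 to 15.5. Its part in the members' values was not tested.

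Of the members with the smallest p-values in cortex, Gen1 was at 5.18, 6.35 and 5.70 CPM in control and 11.1, 8.58 and 8.45 in the libraries labelled cKO. The groups did not overlap, and the difference was 0.71 ± 0.17 (SE; unadjusted p = 0.00183, adjusted p = 0.143 by edgeR, and 0.0173 by DESeq2). Ercc6l2 was at 24.4, 31.2 and 33.7 CPM in control and 38.4, 43.9 and 41.3 in cKO. Its groups did not overlap either, with a difference of 0.47 ± 0.12 (SE; adjusted p = 0.170 by edgeR and 0.0217 by DESeq2). Gen1 and Ercc6l2 thus had the same direction in both systems, and the difference between their 2 effects was -0.07 (adjusted p = 0.964) for Gen1 and -0.06 for Ercc6l2. Chek2 was at 4.01, 4.10 and 3.16 CPM in control and 4.97, 4.74 and 5.72 in cKO (0.45, unadjusted p = 0.0432, adjusted p = 0.440). Rad51b, with nearly the same unadjusted p of 0.0433, was at 0.808, 0.247 and 0.60 CPM in control and 0.824, 1.69 and 1.14 in cKO, so few reads stood behind its difference of 1.13 ± 0.49 (SE).

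In the other direction, Mus81 was at 21.04, 19.7 and 19.9 CPM in cortex control and 15.5, 16.9 and 19.2 in the libraries labelled cKO, without overlap (-0.23, unadjusted p = 0.0604, adjusted p = 0.485). The other 2 genes at this end were Fancg and Xrcc6.

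The difference between the systems was tested as NPC minus cortex in 1 fit of all 12 libraries with no replicate block. It called 2 of the 47 members, Fancg and Xrcc6, where 1.46% of 16569 tested genes were called. Both were lower in the libraries labelled cKO and higher in those labelled knockdown.

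Fancg encodes a core subunit of the Fanconi complex and lies at chr4:43002343-43010506 on the minus strand (mm10). It stood at 19.3, 19.1 and 17.7 CPM in cortex control and at 11.4, 12.3 and 12.7 in the libraries labelled cKO, with no overlap. The cortex difference was -0.62 ± 0.11 (log2, SE; 95% interval -0.86 to -0.38), with an unadjusted p of 0.000163 and an adjusted p of 0.0699 by edgeR and 0.000424 by DESeq2. In NPC Fancg was at 14.0, 12.2 and 12.0 CPM in control and 18.7, 13.9 and 14.6 in knockdown, overlapping, with a difference of 0.30 ± 0.09 (SE; adjusted p = 0.0295, and 0.302 without the block). The difference between the 2 effects was 0.94 ± 0.18 (SE; adjusted p = 0.0209). Over 17 alternatives its adjusted p ran from 5.73e-05 to 0.0877, and it passed in 11.

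Xrcc6 encodes Ku70, the partner of Ku80 in the ring that threads onto broken ends, and lies at chr15:81987835-82040085 on the plus strand (mm10). It stood at 34.6, 38.4 and 37.7 CPM in cortex control and at 29.0, 25.8 and 30.5 in the libraries labelled cKO, with no overlap. The cortex difference was -0.37 ± 0.10 (SE; adjusted p = 0.169 by edgeR and 0.0322 by DESeq2). In NPC it was at 48.7, 46.9 and 43.0 CPM in control and 55.9, 53.4 and 50.9 in knockdown, again with no overlap, a difference of 0.21 ± 0.06 (SE; adjusted p = 0.0160, and 0.210 without the block). Xrcc6 shares 7.69% of its exon bases with Desi1 by annotation. Its partner Xrcc5 was at 16.8, 15.6 and 17.0 CPM in cortex control and 17.2, 16.1 and 17.0 in cKO, a difference of 0.02. The difference between the 2 effects for Xrcc6 was 0.60 ± 0.13 (SE; adjusted p = 0.0383), and over 17 alternatives the adjusted p ran from 0.000293 to 0.103, passing in 7. With the replicate block 6 members were called, Chek1, Topbp1, Mdc1 and Fancm besides these 2, where 836 of 16569 tested genes were called. Without the libraries rich in the choroid plexus gene Ttr (over 1000 CPM) 0 members were called (88 of 16681 tested genes were). The difference for Fancg was then 0.96 with an adjusted p of 0.0877.

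Of the wider set of repair genes in NPC, 22 of 61 rose and 7 fell with the block (median 0.14). These are 36.1% and 11.5% of the set, where 11.9% of all tested genes rose and 12.8% fell, so the share of falls was near that of all genes. The largest rises were Ube2t, the ubiquitin-conjugating enzyme of the Fanconi pathway (0.70, adjusted p = 0.000175), Rad51ap1 (0.69, adjusted p = 7.3e-05), Rpa2, a subunit of the single-strand binding complex (0.53, adjusted p = 6.48e-05), and Timeless, a protein of the replication fork (0.46, adjusted p = 6.47e-05).

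The largest fall was that of Atmin, an ATM-interacting protein. It stood at 33.3, 31.2 and 33.7 CPM in NPC control and at 15.0, 8.84 and 9.32 in the libraries labelled knockdown, with no overlap. The fall was -1.59 ± 0.12 (SE; adjusted p = 1.51e-06), and without the block -1.57 (adjusted p = 0.0122). In cortex Atmin was at 54.9, 56.3 and 56.5 CPM in control and 59.0, 58.3 and 56.5 in cKO, a difference of 0.05. Sfr1, an accessory factor of recombination, was at 166, 160 and 164 CPM in NPC control and 104, 86.7 and 101 in knockdown, also with no overlap, and fell by 0.75 on the log2 scale (adjusted p = 1.28e-06, and 0.00685 without the block). Ercc1, the partner of the nuclease XPF (-0.51, adjusted p = 0.00037), and Slx1b, a nuclease partner of SLX4 (-0.36, adjusted p = 0.014), also fell with the block. Atmin and Sfr1 were the 2 genes of the wider set of 61 that passed without the block (3.28%), and 0 of the 47 members did. Of all tested genes 1.89% were called in that fit, so both counts were near that share.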

How the data were processed

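The authors deposited a table of raw read counts with 1 column per library, from total RNA of 12 libraries. Per the submitters' processing notes the reads were aligned with HISAT2 to mm10. The sources used here name no counting program, annotation or strand setting, so antisense overlaps cannot be separated. TMM factors, the filterByExpr filter and the quasi-likelihood test came from edgeR 4.0.16 (under R 4.3.3), with Benjamini-Hochberg adjustment over all tested genes. Cortex and NPC were each fitted on 6 libraries, NPC with the replicate number as a block, and the interaction on all 12. DESeq2 1.42.0 was an alternative. The labels give only shared numbers for the pairing; residuals of same-numbered NPC libraries correlated (0.48, 0.50 and 0.44). Libraries of a group differed beyond counting error, and nothing says that they are separate animals or cultures, so p-values may measure technical spread. Exon lengths and positions came from GENCODE release 21 for mouse. The tests were tried on simulated data. Members, role groups and lists, Atmin included, were chosen with earlier results of these data known. Of 64 listed wider genes 61 were in the table. Library values are given for the 8 largest paired rises in NPC, members called otherwise, the 3 smallest cortex p-values in each direction, and the first 2 genes of each role. Those of Trp53bp1, Lig4 and Rad51b were added to these.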

Additional observations from a re-analysis of the deposited data

Results flagged for a closer look

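For 4 repair genes the difference between treated and control libraries was not the same in NPC and in cortex, by edgeR's interaction test over all 12 libraries. The log2 difference (NPC minus cortex) was 0.94 for Fancg and 0.60 for Xrcc6, both lower in the libraries labelled cKO and higher in those labelled knockdown. It was -0.62 for Sfr1 (adjusted p = 0.0229) and -1.61 for Atmin (adjusted p = 0.0031), both near their control level in cortex and lower in NPC. Groups of 3 are too small to test for 1 library that stands apart.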

How the results depend on the processing

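In cortex the count of called members was 0 of 47. It stayed 0 when any 1 library was left out, where 0 to 28 of all tested genes were called. The same was seen with the replicate block (1 of 15781 genes called) and with other size factors (28 of 15781). A count of 0 could not fall, so these fits do not show that it is stable. With no count filter the count of called members was 1 (Fancg), where 156 of 22812 genes were called, and 4 with DESeq2 (332 of 15781). In NPC 32 members were called. The count was 12 in 1 fit of all 12 libraries, where 1582 of 16569 tested genes were called. It was 27 without pair 1 (4376 of 14405 genes), 25 without pair 2 (2170 of 14291) and 19 without pair 3 (1636 of 14340). With no replicate block it was 0 (270 of 14258), and 4 in DESeq2 (1021 of 14258, chosen after seeing the data). With no block it stayed 0 when any 1 library was left out, where 47 to 304 genes were called. At a 1.5-fold minimum it was 0 (114 of 14258). Of the fits without a pair, that without the third called the fewest members and also the fewest of all genes. The members' median difference was 0.30 in it, 0.29 without the first pair and 0.37 without the second, against 0.31 with all pairs. For the difference between systems the count of 2 became 6 with the replicate block (836 of 16569 genes). It became 0 without the libraries rich in Ttr (88 of 16681). When 1 library was left out it was 0 to 2, where 98 to 275 of all tested genes were called. It was 0 without any 1 of the cKO libraries or NPC control replicate 2 or 3. Of the single members' values, 338 of the NPC alternatives lost the call and 1 gained it, 16 interaction alternatives lost it and 5 gained it, and 5 cortex alternatives gained it; 0 called values changed sign. In cortex same-numbered libraries did not deviate together (correlations 0.02, -0.16 and -0.02). Whether they share a litter or were handled together is not stated, and their numbers were not used as pairs in the main fit. Depth limits mainly Rad51b and Rad51c in cortex, which were under 2 CPM.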

Other observations

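Of 23 tested targets of p53, the transcription factor that the checkpoint kinases activate, 7 fell and 3 rose in NPC with the replicate block (median -0.13, where 12.8% of all tested genes fell and 11.9% rose), and without it edgeR called 0 (3 higher and 2 lower at an unadjusted p under 0.05). In NPC control, replicate 3 was the highest library for 19 of the 23 and replicate 1 the lowest for 19. The median difference between control replicates 1 and 3 was -0.30, larger in size than that between groups. Sesn2 fell by 0.52 on the log2 scale, Eda2r by 0.44 and Cdkn1a, the inhibitor of cyclin-dependent kinases, by 0.38. In cortex the median was 0.26 over 23 tested targets, and Eda2r was called, at 2.04 (adjusted p = 0.0213), while Cdkn1a differed by 0.79 (adjusted p = 0.0706). The difference between the systems passed for Eda2r (-2.46, adjusted p = 0.00217), Sesn2 (-1.27, adjusted p = 0.00957) and Cdkn1a (-1.14, adjusted p = 0.0446).

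The E2F core was in the promoter windows of 13 of the 27 matched members that rose in NPC (48.15%) and in 3 of the 12 that were not called (25%). Of the matched genes tested in NPC 14.4% held it, so both shares were above that of tested genes. These counts include windows that hold exon bases, are a description and were not tested.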
